A study of Mus musculus with 54 samples.

Results

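Endothelial cells line the vessels of the brain and form the blood-brain barrier, in which tight junctions seal the gaps between cells and a set of transporters decides which small molecules cross. The data here concern 9 genes of that cell type, chosen by symbol: the junction and adhesion genes Cldn5, Cdh5 and Pecam1, the transporters Slc2a1, Slco1a4 and Abcb1a, the receptors Flt1 and Tek, and the surface protein gene Ly6c1. These are 9 of 30031 genes in the deposited count table, and all 9 were among the 18941 genes that passed the filter on low counts and were tested. Brain endothelium keeps this specialised state through signals from its neighbours, with Wnt ligands acting through a Frizzled receptor and its coreceptors, and VEGF and angiopoietin ligands acting through Flt1, its sister receptor Kdr and Tek.

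The tissue was the suprachiasmatic nucleus (SCN), the hypothalamic clock centre, cut from frozen sections by laser-capture microdissection of wild-type male C3H/HeH mice aged 10 to 12 weeks. Mice were kept under 12 h of light and 12 h of darkness and were taken at 6 Zeitgeber times (ZT, hours after lights on), namely ZT2, ZT6 and ZT10 in the light and ZT14, ZT18 and ZT22 in the dark. Each timepoint had 3 replicates (A, B and C), each a pool of captured tissue from 5 mice that was sequenced as 3 technical replicates. Individual animals therefore cannot be told apart within a pool. No group carried a transgene, a drug or a control treatment, and all comparisons are between timepoints.

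The 18 replicates held between 15412981 and 35820945 assigned reads, the fewest in ZT18 C. Levels are given as CPM, the share of a library's reads that fall on a gene, after TMM scaling of the library sizes, and as CPM per kilobase of merged exons where genes are compared with each other. The capture held neurons of the SCN, with Vip at 747 to 3231 CPM, and vessels, with all 9 genes counted at 45 reads or more in every replicate. Timepoints were close inside 3 adjacent pairs over all genes. There were 108 calls between ZT14 and ZT18, 6 between ZT22 and ZT2 and 9 between ZT6 and ZT10, with 3 replicates a side. Between these 3 pairs there were 6142 to 8408 calls, with 6 replicates a side. ZT2 and ZT6, ZT10 and ZT14, and ZT18 and ZT22 are adjacent too but cross the pairs, and were not compared singly. The study's own legend for its principal component plot names sequencing batch beside timepoint. The paper reads the expected timing of most clock genes as a sign that batch effects are minimal, and it reports concordant qPCR. The labels used here give no batch. Where a difference runs between pairs, time of day and any batch that follows the pairs cannot be told apart.

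Ly6c1 was the most abundant of the 9 genes per length in all 18 replicates, at a mean of 50.6 CPM per kb, a level above that of 92.3% of tested genes. Slc2a1 followed at 17.4 CPM per kb, Cldn5 at 10.2 and Slco1a4 at 6.44. The remaining 5 genes lay close together, with Tek at 2.60, Abcb1a at 2.36, Pecam1 at 2.21, Flt1 at 2.14 and Cdh5 at 1.08 CPM per kb. The order below Ly6c1 was not fixed, since Cldn5 ranked between 2 and 7, Slco1a4 between 2 and 9 and Tek between 3 and 9 over the replicates.

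Of the 9 genes, 5 changed with time of day at q below 0.05 by edgeR's quasi-likelihood F-test, namely Cldn5, Pecam1, Slc2a1, Tek and Flt1, against 44.0% of all tested genes. They did not move together. Cldn5, Slc2a1 and Flt1 were lower at ZT22 and ZT2 than at the other 4 timepoints, while Pecam1 was higher there and Tek and Slco1a4 were higher there than at ZT6 and ZT10. In bulk tissue, fewer cells of a type and less RNA per cell cannot be told apart. The plot of values by replicate shows these profiles.

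**Figure D1:**
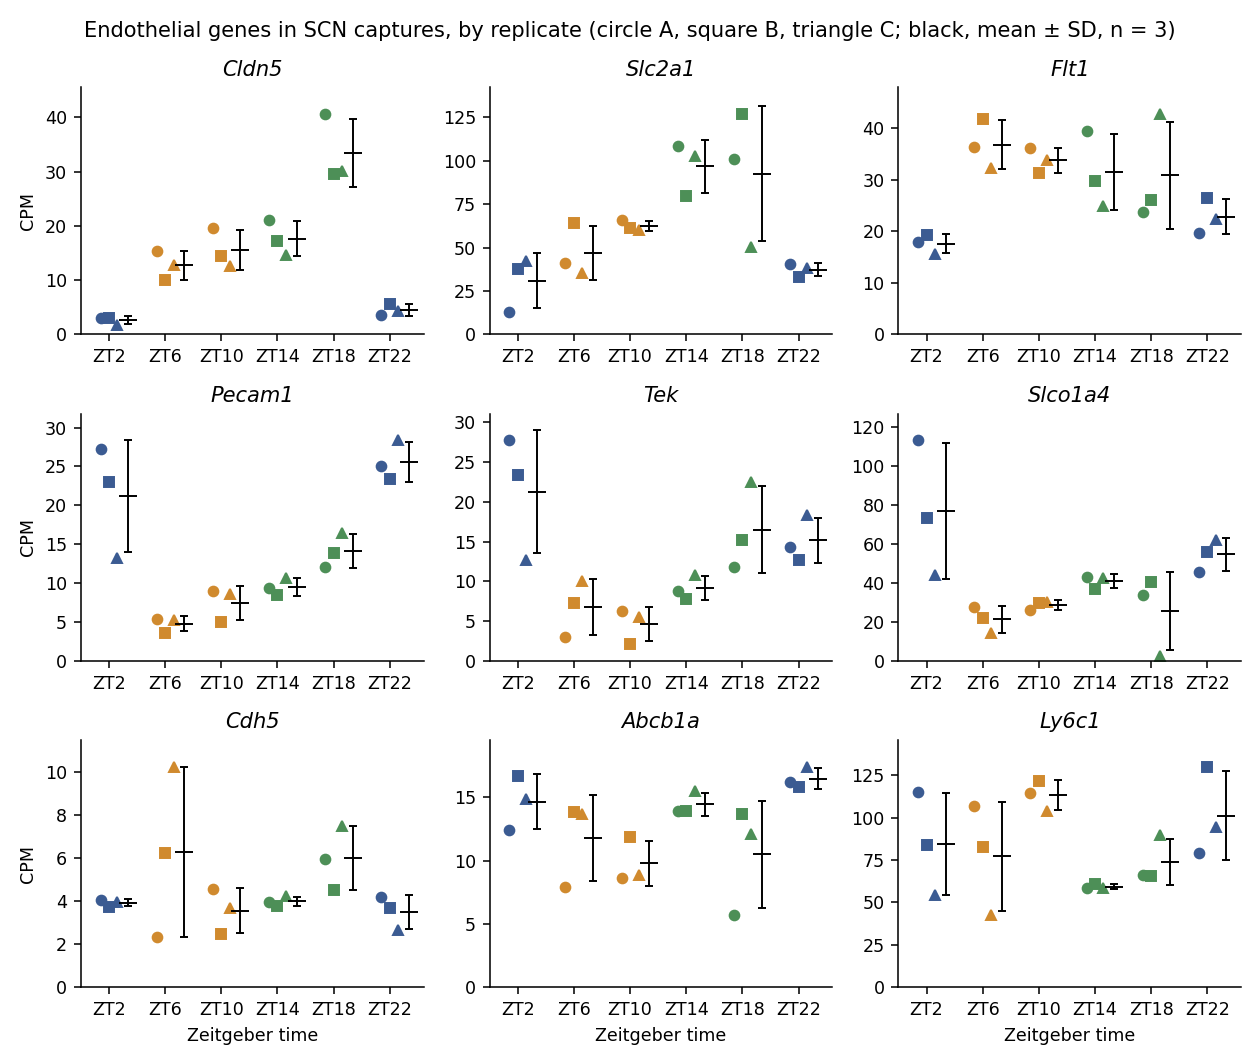
Level of each of the 9 genes (y axis, CPM, linear from 0) at the 6 Zeitgeber times (x axis). Points are replicates (circle A, square B, triangle C), black bars give the mean ± SD of 3 replicates, and colours mark the pairs ZT22 and ZT2 (blue), ZT6 and ZT10 (orange), and ZT14 and ZT18 (green). Cldn5 is lowest at ZT2 and ZT22, where Pecam1 is highest.

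Claudin-5, encoded by Cldn5 (ENSMUSG00000041378, chromosome 16, 18776847 to 18778262, GRCm38), is the main claudin of brain endothelial tight junctions. Its level was 3.11, 2.97 and 1.81 CPM in replicates A, B and C of ZT2, 15.4, 10.1 and 12.8 for ZT6, 19.7, 14.4 and 12.7 for ZT10, 21.03, 17.3 and 14.6 for ZT14, 40.7, 29.5 and 30.2 for ZT18, and 3.52, 5.62 and 4.41 for ZT22. All 6 replicates at ZT22 and ZT2 lay below all 12 others, and all 3 at ZT18 lay above all others. The mean rose from 2.63 ± 0.713 CPM (SD, n = 3) at ZT2 to 33.4 ± 6.26 CPM at ZT18, a 12.7-fold range (edgeR, q = 7.79e-07). Neighbouring means that did not overlap were ZT18 and ZT14, ZT6 and ZT22, and ZT22 and ZT2, whereas the replicates at ZT6, ZT10 and ZT14 overlapped in order. ZT14 and ZT18 together exceeded ZT22 and ZT2 by 2.82 ± 0.23 on the log2 scale (SE, q = 3.39e-08), and ZT6 and ZT10 exceeded ZT22 and ZT2 by 2.03 ± 0.22 (q = 8.03e-07).

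Platelet endothelial cell adhesion molecule, the product of Pecam1 (ENSMUSG00000020717, chromosome 11, 106654217 to 106750628), sits at contacts between endothelial cells. It measured 27.3, 23.0 and 13.2 CPM for ZT2, 5.42, 3.65 and 5.25 for ZT6, 8.98, 4.99 and 8.54 for ZT10, 9.32, 8.51 and 10.7 for ZT14, 12.1, 13.9 and 16.5 for ZT18, and 25, 23.4 and 28.4 for ZT22. Where Cldn5 was lowest, Pecam1 was highest, with its top mean at ZT22 (25.6 ± 2.54 CPM, SD, n = 3) and its lowest at ZT6 (4.77 ± 0.980 CPM). In that 5.36-fold range (q = 4.50e-05), the ZT2 replicates overlapped those at ZT18 through replicate C alone. ZT6 and ZT10 fell below ZT22 and ZT2 by 1.96 ± 0.23 on the log2 scale (SE, q = 1.60e-06), with no overlap between the 6 replicates on each side, and ZT14 and ZT18 were lower than ZT22 and ZT2 by a log2 difference of -1.004 ± 0.22 (q = 0.00165).

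VE-cadherin, encoded by Cdh5 (ENSMUSG00000031871, chromosome 8, 104101625 to 104144511), is the cadherin of endothelial adherens junctions and is held to be among the most endothelial-specific genes. Its means lay between 3.52 ± 0.793 CPM at ZT22 and 6.29 ± 3.96 CPM at ZT6 (SD, n = 3). The ZT6 replicates alone, at 2.34, 6.25 and 10.3 CPM, spanned the lowest and the highest value of the whole series. No change with time was called (q = 0.418), and none of the pair comparisons passed. At ZT6 its reads numbered 54, 132 and 217 in the 3 replicates.

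GLUT1, the product of Slc2a1 (ENSMUSG00000028645, chromosome 4, 119108711 to 119137983), carries glucose across the barrier and is also made at a lower level by glia. It measured 12.95, 37.4 and 42.3 CPM for ZT2, 41.0, 64.3 and 35.2 for ZT6, 65.7, 61.5 and 60.2 for ZT10, 108.3, 79.4 and 102.7 for ZT14, 100.7, 127.0 and 50.1 for ZT18, and 40.4, 33.0 and 38.4 for ZT22. High values fell at ZT14 and ZT18, except in ZT18 C, and the lowest value was that of ZT2 A. Means ran from 30.9 ± 15.7 CPM at ZT2 to 96.8 ± 15.3 CPM at ZT14 (SD, n = 3, q = 0.00350), with overlap between every pair of neighbours in the order of means. ZT14 and ZT18 exceeded ZT22 and ZT2 by 1.48 ± 0.26 on the log2 scale (SE, q = 0.000235), the 2 sets of 6 replicates not overlapping. The smaller difference of ZT6 and ZT10 above ZT22 and ZT2, 0.67 ± 0.26 (q = 0.0406), lost its call in 8 of the 18 fits that left out a replicate (ZT2 A, ZT6 B, and each replicate at ZT10 and at ZT22, log2 differences from 0.49, q at most 0.116).

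Slco1a4 (ENSMUSG00000030237, chromosome 6, 141805440 to 141856199) encodes an organic anion transporter of brain capillaries. Its level was 113.2, 73.4 and 44.0 CPM for ZT2, 27.6, 22.0 and 14.2 for ZT6, 26.0, 29.6 and 30.4 for ZT10, 43.0, 36.7 and 42.8 for ZT14, 33.7, 40.5 and 2.75 for ZT18, and 45.7, 55.9 and 62.3 for ZT22. All 6 replicates at ZT22 and ZT2 lay above the other 12, and ZT18 C lay far below its 2 companions. Over the 6 timepoints the change missed the threshold (q = 0.0551). That call rested on single libraries, since it was made when ZT18 C (q = 0.000496), ZT18 B or ZT2 C was left out, and under 5 of the 9 other processing choices. ZT6 and ZT10 were lower than ZT22 and ZT2 by a log2 difference of -1.39 ± 0.40 (SE, q = 0.00809). Between ZT14 and ZT18 and ZT22 and ZT2 the difference was -0.999 ± 0.39 with q = 0.0575, and without ZT18 C it was -0.74 with q = 0.0128. That difference passed under 6 of the 9 other processing choices.

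P-glycoprotein, the drug efflux pump of the barrier encoded by Abcb1a (ENSMUSG00000040584, chromosome 5, 8660077 to 8748575), kept the narrowest range of means of the 9 genes. These ran from 9.77 ± 1.80 CPM at ZT10 to 16.5 ± 0.844 CPM at ZT22 (SD, n = 3), a 1.69-fold range that did not pass (q = 0.261). The 3 replicates at ZT22 lay at 15.8 to 17.4 CPM and the 18 replicates between 5.73 (ZT18 A) and 17.4 CPM. ZT6 and ZT10 against ZT22 and ZT2 gave -0.53 ± 0.23 on the log2 scale (q = 0.0659). It was called when ZT18 A was left out (q = 0.0335) and by DESeq2 (-0.55, q = 0.0366).

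VEGF receptor 1, encoded by Flt1 (ENSMUSG00000029648, chromosome 5, 147561604 to 147726011), binds VEGF-A and VEGF-B and limits signalling through Kdr. It measured 18.0, 19.2 and 15.7 CPM for ZT2, 36.4, 41.7 and 32.3 for ZT6, 36.2, 31.3 and 33.7 for ZT10, 39.5, 29.8 and 24.99 for ZT14, 23.7, 26.0 and 42.8 for ZT18, and 19.7, 26.5 and 22.4 for ZT22. The 3 values at ZT2 were the lowest of the series, and all 6 at ZT22 and ZT2 lay below all 6 at ZT6 and ZT10. ZT6 and ZT10 exceeded ZT22 and ZT2 by 0.81 ± 0.17 on the log2 scale (SE, q = 0.000874), and ZT14 and ZT18 by 0.63 ± 0.17 (q = 0.00826). Leaving out ZT2 C removed the call over time (q = 0.0139 with it, 0.0890 without) and that for ZT14 and ZT18 (log2 0.50, q = 0.0547).

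Tek (ENSMUSG00000006386, chromosome 4, 94739289 to 94874976) encodes Tie2, the receptor for angiopoietins that steadies the resting vessel wall. Its values were 27.8, 23.4 and 12.7 CPM for ZT2, 3.04, 7.29 and 10.0 for ZT6, 6.26, 2.17 and 5.48 for ZT10, 8.84, 7.81 and 10.8 for ZT14, 11.8, 15.2 and 22.5 for ZT18, and 14.4, 12.8 and 18.3 for ZT22. Every replicate at ZT6 and ZT10 lay below every replicate at ZT22 and ZT2. The means fell from 21.3 ± 7.74 CPM at ZT2 to 4.64 ± 2.17 CPM at ZT10 (SD, n = 3, q = 0.00473). ZT6 and ZT10 were lower than ZT22 and ZT2 by a log2 difference of -1.68 ± 0.32 (SE, q = 0.000363) and lower than ZT14 and ZT18 by -1.13 ± 0.32 (q = 0.0117), while ZT14 and ZT18 against ZT22 and ZT2 gave -0.55 ± 0.31 (q = 0.195).

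Ly6c1 (ENSMUSG00000079018, chromosome 15, 75044018 to 75048830) encodes a small lipid-anchored surface protein that brain endothelium carries at a high level and that some blood monocytes also carry. It ranged from 42.7 CPM in ZT6 C to 130.0 CPM in ZT22 B, and the 3 replicates at ZT2 already spread from 54.5 to 114.8 CPM. The tightest timepoint was ZT14, at 59.3 ± 1.35 CPM, and the highest mean was at ZT10, at 113.4 ± 8.94 CPM (SD, n = 3). No change over time was called (q = 0.111), but leaving out ZT6 C gave a call, as did leaving out ZT6 A or ZT2 C (lowest q = 0.0386). ZT6 and ZT10 against ZT14 and ZT18 gave 0.50 ± 0.21 on the log2 scale (q = 0.0717), a difference that passed under 7 of the 9 other processing choices and turned to -0.04 (q = 0.887) once transcript length was adjusted for. ZT14 and ZT18 against ZT22 and ZT2 gave -0.48 ± 0.21 (q = 0.0822), which passed under 4 of those 9 choices.

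Counts of calls for the 9 genes were read against those for all tested genes. By the joint criterion of a change with time and a 24-h wave (JTK_CYCLE, an exact rank test), 4 of the 9 cycled, against 29.8% of tested genes. Cldn5 and Slc2a1 peaked at ZT14 by that fit (exact p = 0.00150 and 0.000986), and Pecam1 and Tek at ZT22 (exact p = 0.000246 and 0.000635). Flt1 changed with time but was not called cyclic (exact p = 0.222). Cldn5 had its highest mean at ZT18, so the fitted peak and the highest timepoint differ by a sampling step.

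**Figure D2:**
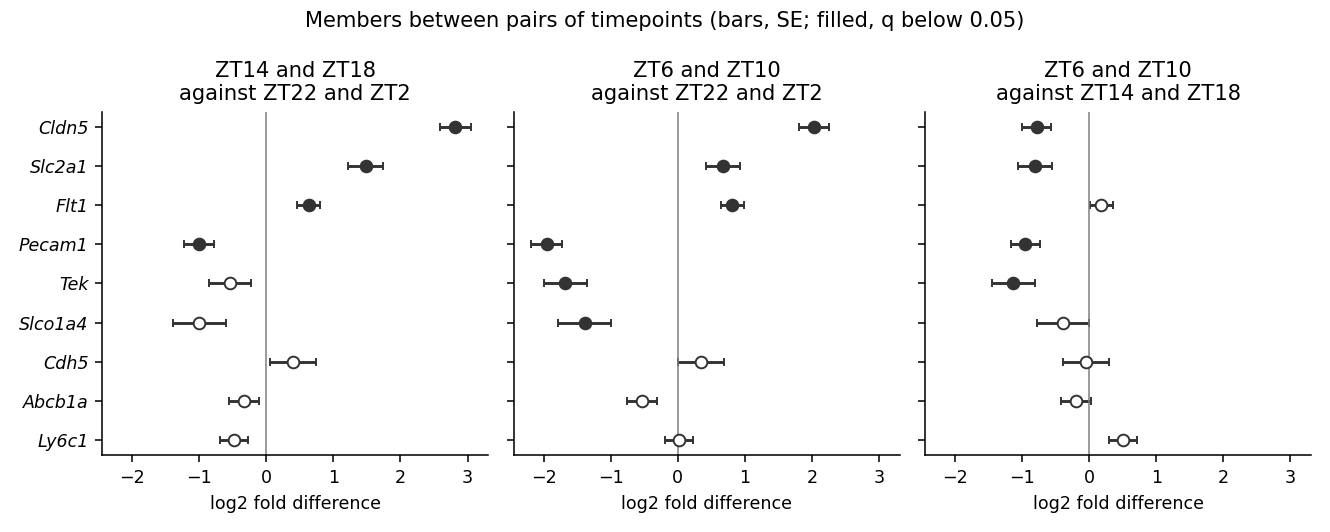
Log2 fold differences (x axis) of the 9 genes (y axis) between pairs of timepoints, from edgeR, with 6 replicates a side. Bars are SE from that fit and filled points have q below 0.05. Cldn5, Slc2a1 and Flt1 lie right of 0, and Pecam1, Tek and Slco1a4 left of it, in both comparisons against ZT22 and ZT2.

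Between ZT14 and ZT18 on the one hand and ZT22 and ZT2 on the other, 4 of the 9 genes differed, against 33.5% of all tested genes. Of these, 3 were higher at ZT14 and ZT18 (Cldn5, Slc2a1 and Flt1, background 20.1%) and 1 was lower (Pecam1, background 13.5%). The median of the 9 log2 differences was -0.34, beside 0.0019 over all tested genes. Between ZT6 and ZT10 and the pair ZT22 and ZT2, 6 of the 9 differed, against 44.4%. There 3 were higher (Cldn5, Slc2a1 and Flt1, background 22.4%) and 3 lower (Pecam1, Tek and Slco1a4, background 21.9%), with a median of 0.02, beside -0.07 over all tested genes.

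Between ZT6 and ZT10 and the pair ZT14 and ZT18, 4 of the 9 differed, against 32.4%, and all 4 were lower at ZT6 and ZT10 (background 19.4%). These were Tek, Pecam1 (-0.95 ± 0.22, q = 0.00319), Slc2a1 (-0.81 ± 0.25, q = 0.0218) and Cldn5 (-0.79 ± 0.21, q = 0.00852). The Slc2a1 call was lost without ZT6 C (q = 0.0505) or ZT18 B (q = 0.0658), and with offsets that adjust each library for the GC content and length of transcripts (-0.50, q = 0.105). The 9 genes had a median of -0.39, beside -0.18 over all tested genes. Upper-quartile scaling moved the median of all genes by 0.14 in this comparison and by -0.18 between ZT14 and ZT18 and the pair ZT22 and ZT2. With it the share of calls that were higher in the first pair went from 40.2% to 51.6% and from 59.9% to 45.9%, respectively. Under that scaling Flt1 lost its call in the latter comparison (log2 0.45, q = 0.0572).

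Light against dark called 3 of the 9 genes, against 23.8% of all tested genes. All 3 were lower in the light (background 14.3%): Cldn5 by a log2 difference of -0.79 ± 0.17 (q = 0.00339), Pecam1 by -0.73 ± 0.18 (q = 0.00693) and Slc2a1 by -0.63 ± 0.21 (q = 0.0362). The contrast averages unlike timepoints, since Pecam1 was high at ZT2 and Cldn5 low there, both in the light. The Slc2a1 call held in 7 of the 18 fits without a replicate. It was lost without ZT6 A or C, any ZT10 replicate, ZT14 A or C, ZT18 A or B, or ZT22 A or C, with log2 differences from -0.73 to -0.51 over all 18 fits and q up to 0.0812. It was also lost under upper-quartile scaling, on whole reads recovered from the normalized table, with GC offsets, and with GC and length offsets. Tek was called in the fit without ZT6 C (q = 0.0495).

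The labels do not say whether the timepoints of a pair share a batch. Within the pairs ZT14 and ZT18, ZT22 and ZT2, and ZT6 and ZT10, edgeR called none of the 9 genes. The background there was 0.57% between ZT14 and ZT18, 0.0317% between ZT22 and ZT2, and 0.0475% between ZT6 and ZT10. At an unadjusted p under 0.05 the count was 1 gene between ZT14 and ZT18, 1 between ZT22 and ZT2, and 0 between ZT6 and ZT10, and it was Cldn5 both times. Over all 18941 tested genes that threshold was passed by 2564, 680 and 2042 genes, respectively. Cldn5 was lower at ZT14 than at ZT18 by a log2 difference of -0.92 ± 0.30 (q = 0.162), the replicates not overlapping, and DESeq2 called that difference (-0.96, q = 0.0212) while calling no member in the other pairs. Cldn5 at ZT22 against ZT2 gave 0.78 ± 0.31 (q = 1.00), again with replicates that did not overlap. Such a lack of overlap, with 3 replicates a side, was not particular to Cldn5. It held for 6 of the 9 genes between ZT14 and ZT18 and for 2 between ZT22 and ZT2. The share over all tested genes is not given here.

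A pair of genes measured in the same library does not depend on that library's scaling, so the ratio of Cldn5 to Pecam1 was taken within each replicate, both per kilobase. This pair was chosen after the values were seen. The ratio can still depend on GC content, 60.5% for Cldn5 and 50.2% for Pecam1, for which it was not adjusted. The ratio was 0.502, 0.567 and 0.603 at ZT2 in rising order and 0.618 to 1.06 at ZT22, but 6.01 to 14.8 in the 12 replicates of the other timepoints, a 29.4-fold range over the series. No replicate of ZT22 or ZT2 approached the lowest of the other 12. Among those 12 the ratio varied 1.94-fold at ZT6 and ZT10 and 2.45-fold at ZT14 and ZT18. The ratio of Pecam1 to Tek stayed between 0.378 and 1.74 throughout. Other ratios overlapped between the pairs, that of Slc2a1 to Tek with 0.627 to 4.47 at ZT22 and ZT2 and 3.00 to 38.1 elsewhere, and that of Cldn5 to Cdh5 with 1.35 to 4.93 and 3.69 to 20.2.

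**Figure D3:**
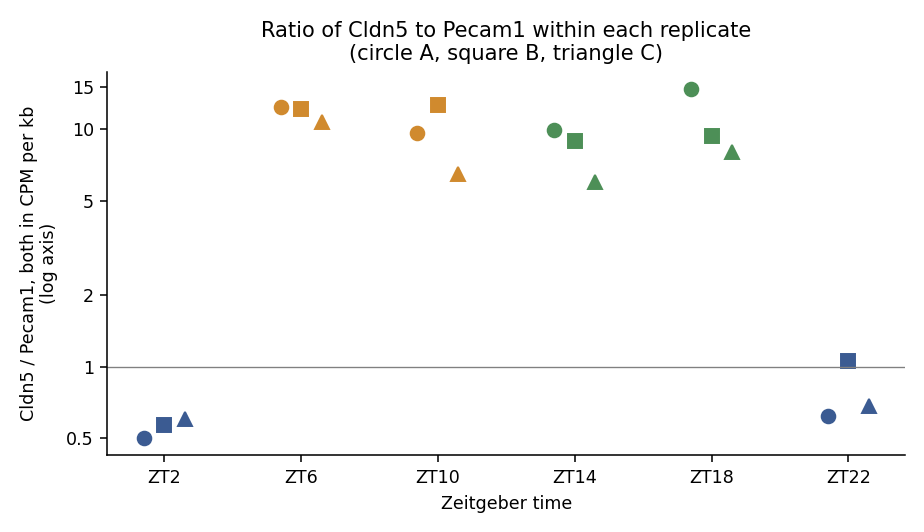
Ratio of Cldn5 to Pecam1, both in CPM per kb (y axis, log scale), in each of the 18 replicates (circle A, square B, triangle C) by Zeitgeber time (x axis). The 6 replicates at ZT2 and ZT22 lie between 0.502 and 1.06, and the other 12 between 6.01 and 14.8.

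The base composition of the transcripts moved with the same division of timepoints. Among genes with a mean of at least 1 CPM, the median difference of ZT14 and ZT18 over ZT22 and ZT2 was -0.34 on the log2 scale for 2059 genes whose longest transcript has 40 to 44% G and C, and 1.04 for 2390 genes above 56%. For ZT6 and ZT10 over ZT22 and ZT2 the medians in those classes were -0.24 and 1.00. Between ZT14 and ZT18 and the pair ZT22 and ZT2, Cldn5, at 60.5% the most GC-rich of the 9, stood above the upper quartile of its class (1.82), as did Slc2a1 at 54.0% (0.92) and Flt1 at 50.5% (0.43). Pecam1, at 50.2%, has almost the GC content of Flt1 and moved the other way, below the lower quartile of the class (-0.56). Between ZT6 and ZT10 and the pair ZT22 and ZT2, Cldn5, Flt1 and Pecam1 lay outside the quartiles of their classes on the same sides, but Slc2a1 at 0.67 lay below its upper quartile of 0.79. Slco1a4 had the lowest GC content, at 40.3%, and Tek (47.1%), Abcb1a (45.2%), Ly6c1 (49.6%) and Cdh5 (52.2%) lay between.

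**Figure D4:**
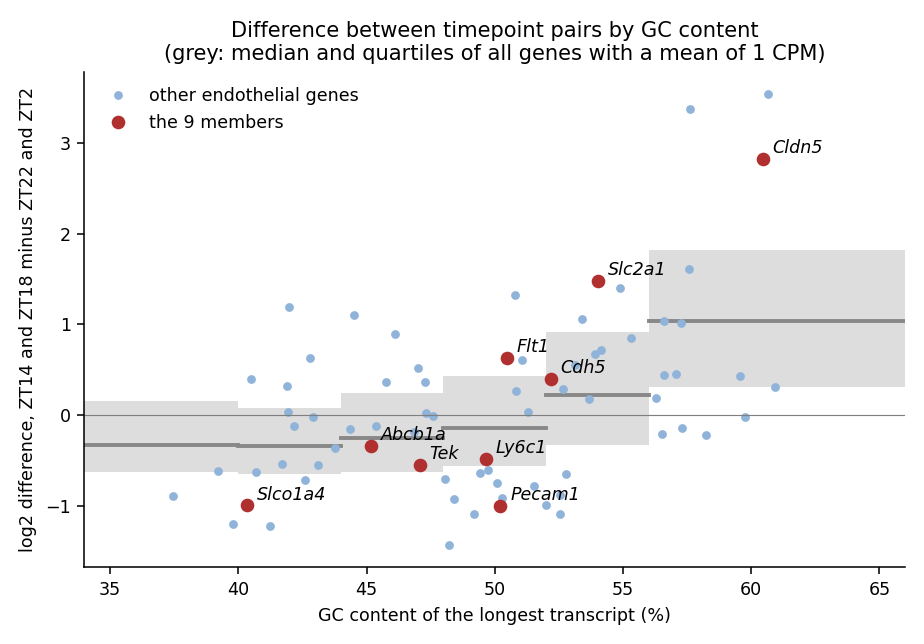
Log2 difference of ZT14 and ZT18 minus ZT22 and ZT2 (y axis) against the GC content of the longest transcript (x axis, %). Red points are the 9 genes, blue points 65 other endothelial genes, and grey lines and bands the median and quartiles of all genes with a mean of at least 1 CPM in each GC class. Cldn5, Slc2a1 and Flt1 lie above the band of their class, Pecam1 below.

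A fit with offsets that remove this dependence on GC content in each library was added after the data were seen. The same 5 genes were called for a change with time, with q from 0.000138 for Cldn5 to 0.0199 for Tek, and the same 5 again when transcript length was included (q from 9.81e-05 to 0.0416). The excess of Cldn5 at ZT14 and ZT18 over ZT22 and ZT2 shrank from 2.82 to 1.56 ± 0.25 on the log2 scale (q = 9.79e-05). Its excess at ZT6 and ZT10 over ZT22 and ZT2 went from 2.03 to 0.38 ± 0.24 and lost its call (q = 0.223). Pecam1 kept -1.69 ± 0.22 in that comparison (q = 7.16e-06), Tek -1.25 ± 0.31 (q = 0.00349) and Slco1a4 -1.11 ± 0.40 (q = 0.0353), the last losing its call with length included (-0.95, q = 0.0686). Flt1 gained, to 1.07 ± 0.17 (q = 6.49e-05), and Slc2a1 held at 0.65 ± 0.24 (q = 0.0351). Between ZT6 and ZT10 and the pair ZT22 and ZT2, Flt1 and Slc2a1 were higher and Pecam1 and Tek lower with and without the adjustment. Between ZT14 and ZT18 and the pair ZT22 and ZT2, Flt1 (0.83), Slc2a1 (1.28) and Pecam1 (-0.80) kept their calls with GC offsets. Tek, not called in that comparison, went from -0.55 to -0.18 ± 0.30 (q = 0.70).

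The stretch of 120 bases before the transcription start is shown for the 5 genes with opposite profiles that have an entry in the RefSeq promoter table (GRCm38.p6) within 100 bases of the annotated start. Each is written 5′ to 3′ on the strand of the gene, with matches on either strand in capitals. The motifs were the box written GGGCGG that Sp1 binds, the E-box written CACGTG, the box of core promoters written TATAAA, the cyclic AMP response element written TGACGTCA, and the box written CCAAT that NF-Y binds. The first 3 belong to the genes that were low at ZT22 and ZT2, and the last 2 to genes that were higher there than at ZT6 and ZT10. Pecam1, which was high at ZT22 and ZT2, has no entry in that table.
Cldn5 (chr16:18776727-18776846, plus strand): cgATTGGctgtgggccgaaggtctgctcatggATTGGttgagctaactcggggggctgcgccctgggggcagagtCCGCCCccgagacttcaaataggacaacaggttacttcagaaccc
Slc2a1 (chr4:119108591-119108710, plus strand): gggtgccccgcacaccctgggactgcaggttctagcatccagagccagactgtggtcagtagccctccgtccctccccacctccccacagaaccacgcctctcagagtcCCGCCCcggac
Flt1 (chr5:147726012-147726131, minus strand): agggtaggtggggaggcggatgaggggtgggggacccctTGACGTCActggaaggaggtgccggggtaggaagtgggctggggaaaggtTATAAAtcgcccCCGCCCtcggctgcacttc
Tek (chr4:94739169-94739288, plus strand): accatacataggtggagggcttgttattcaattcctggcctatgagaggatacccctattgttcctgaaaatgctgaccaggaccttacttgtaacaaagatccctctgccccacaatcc
Slco1a4 (chr6:141856221-141856340, minus strand): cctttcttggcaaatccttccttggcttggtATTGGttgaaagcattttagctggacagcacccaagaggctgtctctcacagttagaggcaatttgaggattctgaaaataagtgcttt

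These windows hold 60.0% G and C for Cldn5, 67.5% for Slc2a1 and 65.0% for Flt1, and 46.7% for Tek and 43.3% for Slco1a4, beside a median of 54.2% over all 32851 promoters of the table. A match to GGGCGG is present in the first 3 and in neither of the last 2, and 26.5% of all windows of that length hold it. The TATAAA and TGACGTCA matches of Flt1 are found in 6.34% and 1.24% of windows, and the CCAAT matches of Cldn5 and Slco1a4 in 21.3%. CACGTG, the E-box bound by clock proteins, is in none of the 5 and in 3.66% of all windows. GGAA, the core that ETS factors of endothelium bind, was searched too and is left in lower case, since 73.4% of windows have it, with 3 matches in Flt1, 2 in Tek and 1 in Slco1a4. Ly6c1, with no called change, also has a matched window, not shown, with 43.3% G and C and no GGGCGG. These are matches of letters in a short window and not measured binding sites. The 5 genes were grouped by their profiles in these data, and a link between motif and profile was not tested.

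Of 66 further genes of brain endothelium, 65 were in the count table and tested (Eng was not used), and 30 changed with time and 20 cycled, beside the 44.0% and 29.8% of all tested genes. The direction was divided here as well. Against ZT22 and ZT2, 9 were higher and 20 lower at ZT6 and ZT10 (background 22.4% and 21.9%). Likewise 10 were higher and 8 lower at ZT14 and ZT18 (background 20.1% and 13.5%). The latter split depended on scaling, with 8 higher and 13 lower under DESeq2 size factors, 7 and 14 under upper-quartile scaling, and 11 and 4 with the GC offsets. No called gene changed direction under either scaling, and 1 did with GC offsets, namely Egfl7 between ZT14 and ZT18 and the pair ZT22 and ZT2 (0.45 to -0.15). The set lower at ZT22 and ZT2 than at both other pairs had 6 genes, namely Slc3a2, Bsg, Fli1, Plvap, Egfl7 and Spock2. The set higher there than at both had 7, namely Abcg2, Slc22a8, Slco2b1, Slco1c1, Tfrc, Cav1 and Palmd. With GC offsets the first set kept both calls except for Egfl7, which lost both, whereas in the second set Tfrc and Palmd kept both and the other 5 lost that against ZT14 and ZT18 (q from 0.0584 for Slco2b1 to 0.558 for Slco1c1).

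Basigin, encoded by Bsg, which escorts lactate transporters to the cell surface and is made by many cell types, had the smallest q of the list (1.0e-09). It measured 49.5 to 61.8 CPM in the 6 replicates at ZT22 and ZT2, 401.8 to 788.8 at ZT6 and ZT10, and 437.5 to 761.7 at ZT14 and ZT18. Plvap, the diaphragm protein of leaky vessels that mature barrier endothelium lacks, ran in parallel at a lower level, with 1.02 to 2.79 CPM at ZT22 and ZT2 and 10.7 to 43.0 CPM at ZT6 and ZT10 (q = 1.15e-06). Palmd went the other way, with 45.9 to 59.5 CPM at ZT22 and ZT2 and 12.3 to 27.7 CPM elsewhere (q = 1.78e-05). With GC offsets the log2 differences of ZT6 and ZT10 over ZT22 and ZT2 were 2.82 ± 0.13 for Bsg, 2.44 ± 0.30 for Plvap and -1.26 ± 0.17 for Palmd. In that fit 24 of the 65 genes were called for a change with time, beside 7716 of all 18941 tested genes. Itm2a, the most abundant of the list per length after Bsg (73.1 CPM per kb), was higher at ZT22 and ZT2 than at ZT6 and ZT10 (log2 -0.82 ± 0.22 for the latter, q = 0.00579). With GC offsets that call was lost (-0.51, q = 0.0893), as was the one over time (q = 0.287).

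By role, 6 of 13 junction and adhesion genes changed with time, 8 of 14 transporters, 2 of 11 receptors and coreceptors, 2 of 10 transcription factors, all 5 genes of caveolae and transcytosis, and 7 of 12 other products. These small counts stand beside 44.0% of all tested genes. With GC offsets Tjp1, Cd93, Slco1c1, Cav2, Egfl7 and Itm2a lost that call (q from 0.0699 for Cd93 to 0.287 for Itm2a). The 4 caveolar coat genes, Cav1, Cav2, Cavin1 and Cavin2, were all lower at ZT6 and ZT10 than at ZT22 and ZT2 (background 21.9%). Of these, Cavin1 had 56.3 to 119.7 CPM at ZT22 and ZT2 and 29.1 to 40.4 CPM at ZT6 and ZT10, with a transcript of 57.3% G and C, close to that of Bsg (57.6%). The iron importer gene Tfrc and the transporter genes Slc22a8 and Slco2b1 resembled Slco1a4, with log2 differences of ZT6 and ZT10 from ZT22 and ZT2 of -1.39 ± 0.18, -2.45 ± 0.31 and -2.06 ± 0.30. Slc3a2, the heavy chain of the large amino acid transporter, moved like Slc2a1, at 48.9 to 58.4 CPM at ZT22 and ZT2 and 61.7 to 137.8 CPM elsewhere (q = 0.00166). Kdr, the main VEGF receptor, did not pass (q = 0.715), nor did Tie1, the companion of Tek (q = 0.0549).

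Ligands of these receptors were divided too, with 5 of 9 changed with time and 5 cycling, beside 44.0% and 29.8% of all tested genes. Vegfb, a ligand of Flt1, measured 3.51 to 7.57 CPM at ZT22 and ZT2 and 33.3 to 54.2 CPM at ZT6 and ZT10 (q = 3.66e-08). The angiopoietin gene Angpt2, a ligand of Tek, ran from 3.74 to 11.1 CPM at ZT22 and ZT2 and from 0 to 2.23 CPM at ZT6 and ZT10 (q = 0.00253). The Wnt ligand gene Wnt7b was higher at ZT6 and ZT10 than at ZT22 and ZT2 by a log2 difference of 2.71 ± 0.40 (q = 2.35e-05). With GC offsets the log2 difference in that comparison was 1.59 ± 0.37 for Wnt7b, and for Vegfb it went from 3.00 ± 0.18 to 1.35 ± 0.18, both still called. Ndp, the Norrin gene that signals through Fzd4 and Tspan12, was lower there (-1.55 ± 0.28, q = 0.000201). Fzd4 itself was at 0 to 5.98 CPM and no change was called (q = 0.692).

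Markers of other cells in and around vessels were summed to set beside these profiles. Mural cell genes, of pericytes and smooth muscle, summed to 664.6 to 1122 CPM at ZT22 and ZT2, 439.0 to 663.1 at ZT14 and ZT18 and 205.4 to 546.7 at ZT6 and ZT10. Rgs5 alone gave 382.9 to 705.7 CPM at ZT22 and ZT2. Of the 15 mural genes 6 changed with time, beside 44.0% of all tested genes. Rgs5 and Vtn, the most abundant mural genes per length, were lower at ZT6 and ZT10 than at ZT22 and ZT2 by log2 differences of -1.31 ± 0.19 (q = 1.90e-05) and -1.37 ± 0.22 (q = 7.13e-05). In that comparison 5 of the 15 were lower and 2 higher (background 21.9% and 22.4%). The higher 2 were Notch3 (0.70 ± 0.24, q = 0.0245) and Higd1b (0.69 ± 0.24, q = 0.0257). Notch3 turned to -0.46 with GC offsets. Acta2, of smooth muscle, also changed (q = 0.00744). Fibroblast genes summed to 101.8 to 155.4 CPM at ZT22 and ZT2 and 36.1 to 104.0 CPM elsewhere, with 2 of 7 changed, namely Dcn (q = 0.000400) and Slc6a13 (q = 0.000736). The 3 red blood cell genes measured summed to 130.5 to 468.0 CPM without a clear difference between pairs, and 1 changed, namely Alas2 (q = 0.0418), with Hba-a1 (q = 0.851) and Hba-a2 (q = 0.343) the most abundant.

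The 9 genes summed to 176.4 to 335.8 CPM, with medians of 285.9 at ZT22 and ZT2, 259.6 at ZT6 and ZT10 and 292.6 at ZT14 and ZT18, and the ranges of the 3 pairs overlapped. The 65 other endothelial genes summed to 1492 to 2612 CPM, of which Bsg alone gave up to 788.8. They lay at 1513 to 1739 CPM at ZT22 and ZT2 and at 1905 to 2612 CPM at ZT14 and ZT18, with no overlap, and at 1492 to 2269 CPM at ZT6 and ZT10. Much of that separation lay in Bsg, at 49.5 to 61.8 CPM at ZT22 and ZT2 and 437.5 to 761.7 CPM at ZT14 and ZT18. A sum without Bsg was not taken. Between the lowest and the highest replicate the sum of the 9 ranged 1.90-fold. Single members ranged from 2.73-fold for Flt1, 3.04-fold for Abcb1a and 3.05-fold for Ly6c1 to 12.8-fold for Tek, 22.4-fold for Cldn5 and 41.2-fold for Slco1a4, whose lowest value was in ZT18 C.

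**Figure D5:**
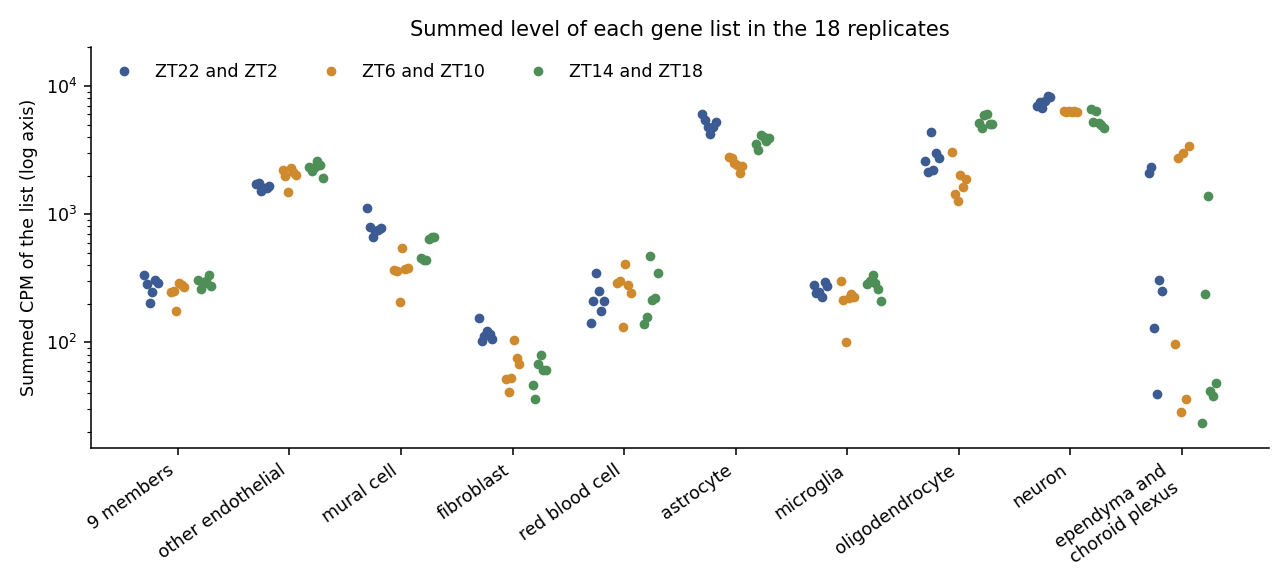
Summed level of each gene list (y axis, CPM, log scale) in the 18 replicates, grouped by cell type (x axis) and coloured by pair of timepoints. The 9 genes lie between 176.4 and 335.8 CPM in all pairs. Sums of mural cell genes, with Rgs5 the largest part, and of astrocyte genes are highest at ZT22 and ZT2. Those of ependymal and choroid plexus genes scatter widely in every pair.

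Parenchymal lists moved with the pairs as well. Counts of genes changed with time stand beside 44.0% of all tested genes. Astrocyte genes summed to 4247 to 6031 CPM at ZT22 and ZT2 and 2095 to 2783 CPM at ZT6 and ZT10, with 7 of 8 changed with time, Slc1a3, Gja1 and Slc1a2 with the smallest q (6.10e-06 to 0.000108), while the abundant Agt missed it (q = 0.0722). Gfap, of the same list, had another profile, with 283.3 to 552.4 CPM at ZT14 and ZT18 and 69.8 to 263.7 CPM elsewhere (q = 0.000893), and gave -0.09 ± 0.26 on the log2 scale between ZT6 and ZT10 and the pair ZT22 and ZT2 (q = 0.802). Oligodendrocyte genes, Mbp among them, were highest at ZT14 and ZT18 (4716 to 6071 CPM, against 1267 to 4409 elsewhere), with 6 of 6 changed, among them Mog (q = 0.000144) and Cnp (q = 0.000226). Of the neuronal genes 7 of 8 changed, with Avp, Grp and Six6 highest at ZT6 and ZT10 and Snap25 highest at ZT22 and ZT2. Of the microglial genes 6 of 8 did, in both directions against ZT22 and ZT2, with Cx3cr1 and P2ry12 lower at ZT6 and ZT10 and C1qa higher, and C1qb not called (q = 0.381). Ependymal and choroid plexus genes varied within timepoints, Ttr from 0.906 to 3313 CPM, and 1 of 8 changed, namely Rarres2 (q = 0.0407). The part of these cell types, of GC content and of any batch in the profiles of the 9 genes was not tested beyond the offsets given above.

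Likeness to the 9 genes as a set was described by Pearson's r over the 18 replicates between each gene's log2 CPM and the mean of the standardised log2 CPM of the 9. The highest of 14140 genes were Dok6 (r = 0.83), Frmd5 (0.77), Sdccag8 (0.76), Gpr183 (0.76), Cpeb4 (0.76), Arap2 (0.76), Htr4 (0.75), Zfp398 (0.75), Pdrg1 (0.74) and Kndc1 (0.73). All 18 points share the same scaling and fall in pairs of timepoints, and none of these 10 is in the endothelial list. The 9 genes behind the mean moved in opposite directions.

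Reads can be shared with close relatives or overlapping genes. Ly6c2, the near-identical neighbour of Ly6c1, was counted at 0.331 to 2.22 CPM, Abcb1b at 0.0474 to 6.45 CPM and Slco1a5 at 0 to 0.971 CPM, beside 5.73 to 17.4 CPM for Abcb1a. How the counting divided reads between such copies is uncertain. Slc2a1 overlaps the antisense gene Gm12868 by 105 bases of exon and Abcb1a the unconfirmed model Gm42686 by 553, and the use of strand in counting is not given in the sources used here.

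The normalized table of the series gives whole reads that match the count table for all 9 genes in all 12 replicates of ZT2, ZT14, ZT18 and ZT22. The 6 libraries of ZT6 and ZT10 differ between the tables over all genes, with identical reads for 4.10 to 8.75% of genes of 10 or more counts, against 92.7 to 94.6% in the other 12 libraries. For the 9 genes the normalized table gave fewer reads there, from 74.0% of the counts for Abcb1a in the lowest replicate to 100% for Pecam1 and Cdh5 in some. A fit on those reads called the same 5 genes for a change with time, while the difference of Slc2a1 between ZT6 and ZT10 and the pair ZT14 and ZT18 went to -0.62 (q = 0.0594).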

How the data were processed

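RNA-seq was measured in laser-captured SCN at 6 Zeitgeber times with 3 pooled replicates each. The authors trimmed reads, aligned them to GRCm38 with GSNAP, counted them per Ensembl gene with HTSeq 0.5.4p1 and deposited raw counts, with the 3 technical replicates of a pool summed, and a normalized table (unit signal, counts divided by DESeq2 size factors). RNA was amplified from a small input by the SMARTer protocol, which can make levels depend on transcript length and base composition.

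Symbols, positions and exon lengths came from GENCODE M21, which named 97.4% of gene IDs. A gene entered the tests if over 6 replicates held 1 read of it or more. edgeR 4.0.16 (TMM, quasi-likelihood F-test, all 18 replicates) tested change over time and contrasts of timepoints, with Benjamini-Hochberg q over all tested genes and a threshold of 0.05. Cycling also required an exact two-sided JTK_CYCLE p below 0.05 for a 24 h period, Bonferroni-adjusted over 6 phases. SD is between the replicates of a group. SE comes from the edgeR fit, as the log2 difference divided by the square root of F. Its spread is estimated from all 18 replicates and not from the compared groups alone.

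The 9 genes were named by symbol, and they, the lists and the tests were chosen with earlier results of these data known. Genes of other lists were named by a rule (the 2 highest per length and the 3 with the smallest q below 0.05), and any further gene was chosen after its values were seen. Some genes that the rule names are not reported here. Alternatives were DESeq2 1.42.0, other scalings and filters, a replicate block, leaving out each replicate, a limma 3.58.1 cosinor, whole reads recovered from the normalized table (tolerance 0.1 read), and, added after the data were seen, offsets for GC content and length. The fits were tested on simulated data. Replicates of a timepoint differed by far more than sampling noise (mean chi-square per gene 31.6 to 141.3 in the 18 pairs), and none was a duplicate. Replicates are separate pools, and the counts allow no interval beyond counting error for a single library.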

Additional observations from a re-analysis of the deposited data

How the results depend on the processing

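Over all alternatives, 5 to 7 of the 9 genes changed with time and 4 or 5 cycled, the fifth cyclic gene being Flt1 with a cosinor in place of JTK_CYCLE and Slco1a4 without ZT18 C. DESeq2 and the fit without a filter added Slco1a4 and Ly6c1 over time, and DESeq2 size factors, upper-quartile scaling and the stricter filter added Slco1a4. Without a filter 8626 of 25395 tested genes changed, and with the stricter filter 7786 of 11444. Between ZT14 and ZT18, DESeq2 called 1 gene (Cldn5) where edgeR called 0. The count of other endothelial genes changing with time lay between 22 (GC and length offsets) and 38 (DESeq2), and between 23 and 31 with a replicate left out. The count over all 18941 tested genes moved as well, from 7422 with GC and length offsets to 9985 with DESeq2.

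Letters A to C did not pair the replicates across timepoints (median correlation of same-letter deviations 0.0020, range -0.27 to 0.096). With a replicate block 5 of the 9 genes changed with time and 4 cycled, 5 differed between ZT14 and ZT18 and the pair ZT22 and ZT2, and 26 of 65 other endothelial genes changed with time. Over all genes 7847 of 18941 changed with time in that fit. The block ended the call of Slc2a1 between ZT6 and ZT10 and the pair ZT22 and ZT2 (0.66, q = 0.0541) and gave calls there for Abcb1a (-0.56, q = 0.0403) and between ZT14 and ZT18 and the pair ZT22 and ZT2 for Slco1a4 (-1.055, q = 0.0477).

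Reversals among the 9 genes concerned differences that were not called. Cdh5 between ZT6 and ZT10 and the pair ZT14 and ZT18 (log2 -0.05) became 0.027 with DESeq2, 0.026 with its size factors, 0.085 with upper-quartile scaling, 0.0071 with no filter, 0.12 with recovered reads, 0.019 with GC offsets and 0.15 with GC and length offsets, and ran from -0.32 to 0.15 without single replicates. Ly6c1 between ZT6 and ZT10 and the pair ZT22 and ZT2 (0.02) became -0.00799 with DESeq2, -0.00782 with its size factors, -0.038 with upper-quartile scaling, -0.024 with no filter and -0.22 with GC and length offsets, and ran from -0.15 to 0.16 without single replicates. With those last offsets Ly6c1 between ZT6 and ZT10 and the pair ZT14 and ZT18 turned to -0.042, and with GC offsets Abcb1a between ZT14 and ZT18 and the pair ZT22 and ZT2 went from -0.34 to 0.0071. Among genes of the other lists, called differences of Egfl7, Notch3 and Rbfox3 changed sign with GC offsets and were not called there. The cause of these changes was not tested.

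Libraries held enough reads to count all 9 genes, and the spread between the 3 pools of a timepoint sets the size of difference that can be called.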
